A study of Mus musculus with 2 samples.

Results

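The cells described here were mammary epithelial cells that carried transcripts of both the basal keratins Krt14 and Krt5 and the luminal keratins Krt8 and Krt18. They came from mouse mammary transplants that were growing out after basal cells, Fgfr2-deleted or not, had been recombined with wild-type luminal cells. Members were chosen from their own counts of unique molecular identifiers (UMIs, each standing for 1 captured transcript). First, cells with at least 5 UMIs of the immune genes Tyrobp, Fcer1g, Laptm5 and Coro1a per 10000 UMIs were set aside. Of the rest, mixed cells had at least 10 UMIs over both keratin pairs and at least 5 per 10000, at least 3 UMIs of each pair, and a basal share of the keratin UMIs above 0.1 and below 0.9. This gave 108 of 354 cells, 95 of 268 in the Ctrl library and 13 of 86 in the Fgfr2 KO library.

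The libraries came from FACS-purified cells of the mammary fat pads of young female nude mice, dissected days after transplantation, which the labels call mammary gland epithelial cells of genotype WT (Ctrl) and Fgfr2 KO. In Ctrl the donor basal cells were Fgfr2+/+ and in Fgfr2 KO they were Fgfr2 ∆/∆, made from Fgfr2 fl/fl cells. Both were infected with an adenovirus that carries Cre and GFP, and were sorted as basal cells. Donor cells of both libraries carried the R26R mG reporter allele, which switches from Tdtomato to GFP on exposure to Cre. The luminal partners were Fgfr2+/+ and not exposed to Cre, so Fgfr2 was deleted in only some donor cells of the Fgfr2 KO library, and the counts do not give the genotype of a single mixed cell. Nude hosts lack T cells but keep other immune cells, and 80 Ctrl and 41 Fgfr2 KO cells met the immune limit. The Ctrl library held 5458515 UMIs (median 16301 per cell) and the Fgfr2 KO library 1253032 (median 10485), and they shared 0 cell barcodes. There was 1 library per group and so no replicate check. Genotype and library cannot be told apart, and every interval below is a 95% interval that covers counting error only.

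Mammary ducts have an outer layer of basal cells, which include contractile myoepithelial cells and stem cells, and an inner layer of luminal cells that line the lumen and make milk. Keratins are the intermediate filament proteins of epithelia. Krt14 and Krt5 pair with each other in basal cells and Krt8 and Krt18 in luminal cells of the adult gland, whereas cells of the embryonic gland can carry both pairs, and basal cells can give rise to luminal cells on transplantation. On the GRCm38.p6 assembly, Krt14 lies on chromosome 11 (100203162 to 100207510), and Krt5 (101707069 to 101712905), Krt8 (101996711 to 102004342) and Krt18 (102028216 to 102032026) lie on chromosome 15.

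Among cells with enough keratin UMIs to be classed, and with share limits of 0.1 and 0.9, the mixed cells were the most numerous class in Ctrl and stood second to luminal-keratin cells in Fgfr2 KO. Their share was 57.6% in Ctrl, or 95 of 165 classed cells, with an exact binomial interval from 49.7 to 65.2%. In Fgfr2 KO it was 34.2%, or 13 of 38, with an interval from 19.6 to 51.4%. The intervals overlapped. The others were basal-keratin cells with a basal share of at least 0.9 (13 Ctrl, 7 Fgfr2 KO), luminal-keratin cells with a share of at most 0.1 (55 and 18), and 2 Ctrl cells with a share between the limits but under 3 UMIs of a pair. Since deeper cells pass a UMI limit more easily, every cell was also thinned to 5000 UMIs before the rule was applied, so that shallower cells, 14 of Ctrl and 19 of Fgfr2 KO, dropped out. The share was then 44.6% in Ctrl (58 of 130 classed cells, interval 35.9 to 53.6%). It was 29.4% in Fgfr2 KO (10 of 34, interval 15.1 to 47.5%), and 53 of 94 Ctrl and 9 of 13 Fgfr2 KO members were mixed again.

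The keratin counts that chose the cells spread widely. In Ctrl the 95 cells held 3 to 353 UMIs of Krt14 and Krt5 (median 28) and 3 to 956 of Krt8 and Krt18 (median 26), with a median basal share of 0.58. In Fgfr2 KO the 13 cells held 11 to 206 basal keratin UMIs (median 34) and 3 to 99 luminal keratin UMIs (median 14), with a median basal share of 0.81. The Fgfr2 KO members thus lay nearer the basal end, and 8 of 13 had a share above 0.65 against 46 of 95 in Ctrl. The limits cut through a continuous range. In Ctrl, 8 members lay between 0.1 and 0.15 and 12 luminal-keratin cells between 0.05 and 0.1, while at the upper limit 7 members lay between 0.85 and 0.9 and 10 basal-keratin cells between 0.9 and 0.95.

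**Figure D1:**
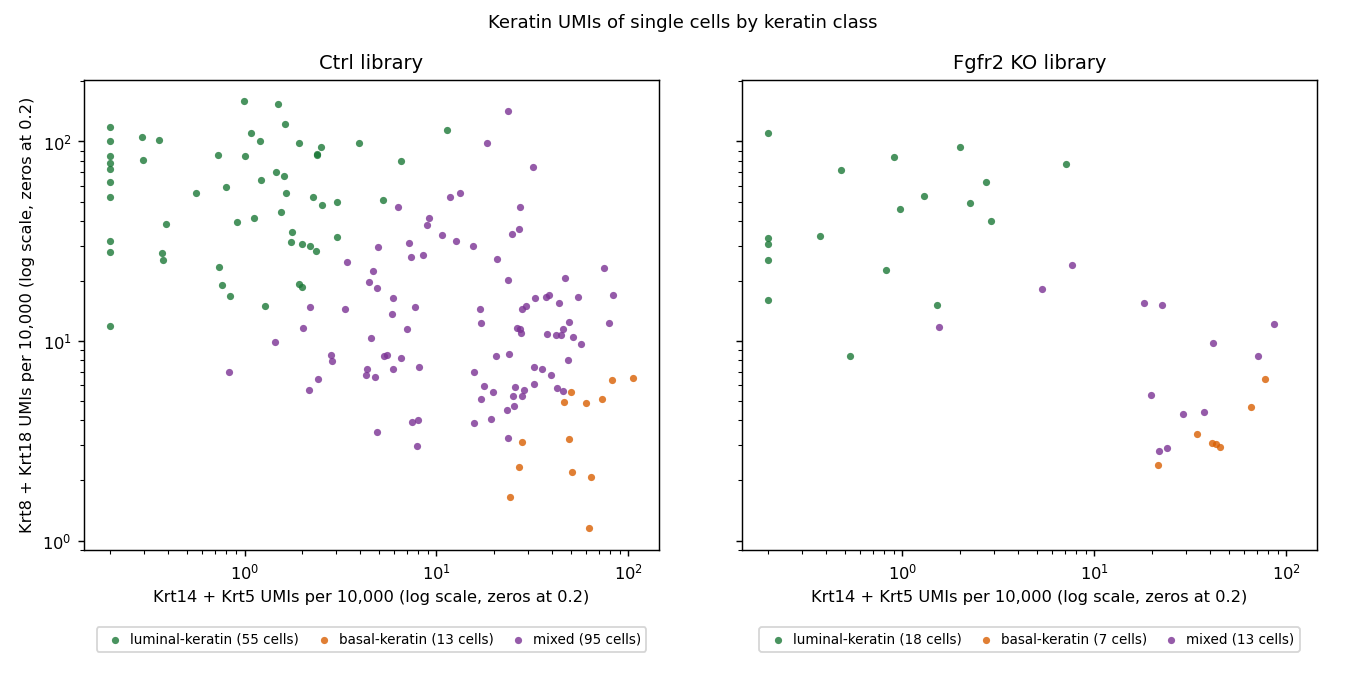
Each point is 1 cell of a keratin class, with UMIs of Krt14 and Krt5 per 10000 on the x axis and of Krt8 and Krt18 per 10000 on the y axis, both on log scales, for the Ctrl and Fgfr2 KO libraries. The 95 and 13 mixed cells fill the space between 55 and 18 luminal-keratin cells at the upper left and 13 and 7 basal-keratin cells at the lower right, with no gap at the limits that separate them.

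Free RNA in the droplets and droplets that hold a pair of cells can both give a cell UMIs of 2 lineages, so the values that bear on them are given here. Immune cells, which do not make these keratins, had 141 CPM (UMIs per 1000000, summed over cells) of the basal and 378 CPM of the luminal pair in Ctrl, against 1978 and 2016 CPM in mixed cells. In Fgfr2 KO they had 49.7 and 123 CPM against 2350 and 1140 CPM. The keratin limits were met by 4 of 80 immune cells in Ctrl (5.0%, interval 1.38 to 12.3%). In Fgfr2 KO 0 of 41 met them, which allows up to 8.60%. Immune cells had medians of 9962 and 5765 UMIs per cell against 20302 and 23021 in mixed cells. The gap in keratin level was set by the rule and is given as a description. At least 3 UMIs of both pairs were found in 15 of 80 immune cells of Ctrl and 0 of 41 of Fgfr2 KO, and the part of free RNA in the class was not tested.

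Depth did not set the mixed cells of Ctrl apart from luminal-keratin cells, which had a median of 21983 UMIs, but basal-keratin cells had fewer (10665). In Fgfr2 KO the medians were 23718 in luminal-keratin and 16377 in basal-keratin cells. A total above the sum of the basal-keratin and luminal-keratin medians (32648 UMIs in Ctrl, 40095 in Fgfr2 KO) was reached by 27 of 95 mixed and 17 of 55 luminal-keratin cells in Ctrl, and by 1 of 13 and 3 of 18 in Fgfr2 KO. The doublet caller Scrublet marked 1 Ctrl and 2 Fgfr2 KO cells in all, among them 1 mixed cell, which was of Fgfr2 KO. A caller of this kind finds few doublets in libraries this small, and the part of doublets in the class was not tested. Ptprc, which encodes CD45, had a UMI in 4 of 95 and 0 of 13 mixed cells, and no mixed cell had over 25% mitochondrial UMIs.

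Genes outside the rule showed that cells with mixed keratins also carried other transcripts of both lineages. Of 9 basal markers (such as Acta2, Mylk and Trp63) and 9 luminal markers (such as Epcam, Cldn3 and Elf3), at least 3 of each were detected in 81 of 95 mixed cells in Ctrl (85.3%, 76.5 to 91.7%). The share was 26 of 55 in luminal-keratin cells (47.3%) and 8 of 80 in immune cells (10.0%). It was as high in basal-keratin cells, at 11 of 13 (84.6%), so this measure separated mixed cells from luminal-keratin but not from basal-keratin cells. After thinning to 5000 UMIs the shares were 41 of 94 (43.6%), 4 of 54 (7.41%), 1 of 72 (1.39%) and 4 of 13 (30.8%), in the same order. In Fgfr2 KO, 10 of 13 mixed, 8 of 18 luminal-keratin, 0 of 41 immune and 6 of 7 basal-keratin cells passed, and 3 of 13, 0 of 18, 0 of 26 and 2 of 7 after thinning. By genes the rule did not use, most members thus carried both lineages at the depth of the files, and fewer at 5000 UMIs.

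**Figure D2:**
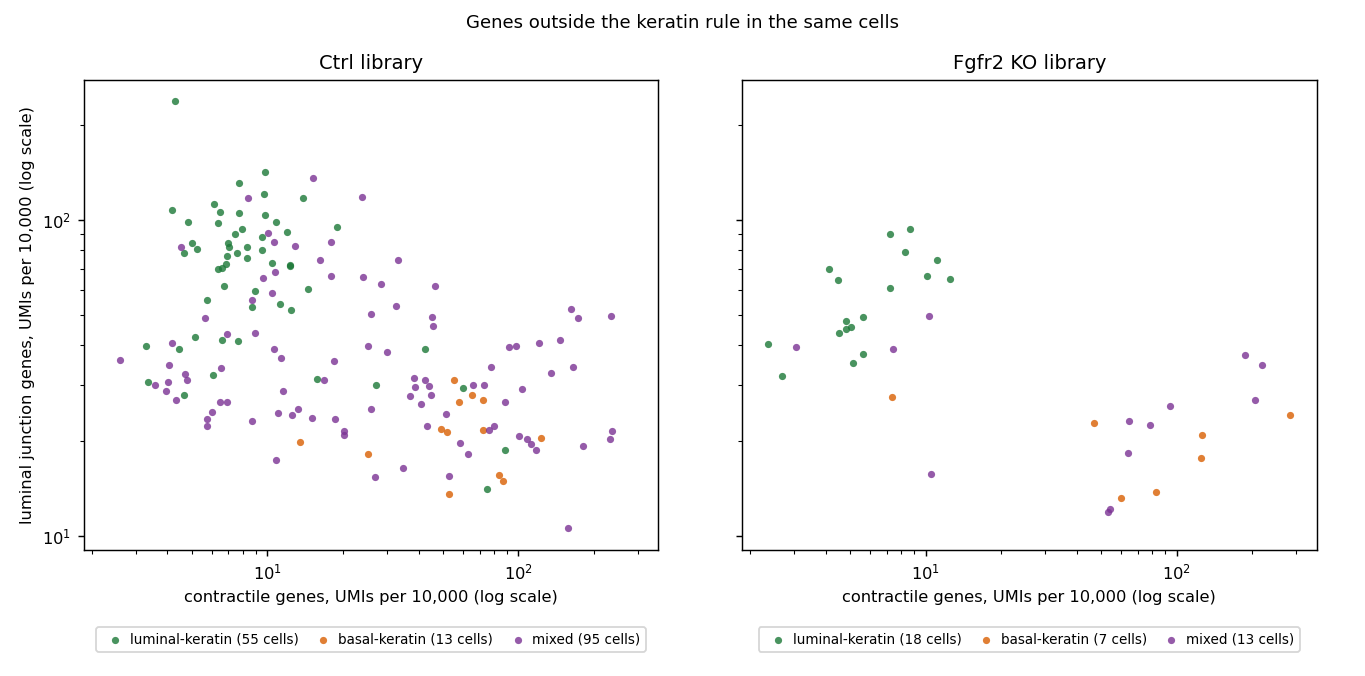
Each point is 1 cell of a keratin class, with the summed UMIs of 12 smooth muscle contractile genes per 10000 on the x axis and of 16 luminal junction and identity genes per 10000 on the y axis, both on log scales. Mixed cells of Ctrl span 2.58 to 236 per 10000 on the contractile axis, across the ranges of the luminal-keratin and basal-keratin cells, and the 13 mixed cells of Fgfr2 KO split into 9 above 50 and 4 below 11 per 10000.

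Contractile genes were lower in mixed than in basal-keratin cells and much higher than in luminal-keratin cells. The 12 genes on the list, which build and regulate the smooth muscle actomyosin of myoepithelium, summed to 4362 CPM in mixed cells of Ctrl, 5846 in basal-keratin and 1514 in luminal-keratin cells. Medians over cells were 25.1, 58.0 and 7.68 per 10000. The highest luminal-keratin cell reached 88.3, and a few such cells raised the sum of that class. The log2 ratio of the sums was −0.42 (−0.52 to −0.32) to basal-keratin and 1.53 (1.46 to 1.59) to luminal-keratin cells. Of the 12 genes, 5 were at least 2-fold lower and 0 at least 2-fold higher than in basal-keratin cells, where 7.82% of 8509 genes with at least 20 UMIs were that much lower and 14.1% higher. Against luminal-keratin cells 10 of 12 were higher and 0 lower, where 8.41% of 9544 genes were higher and 6.45% lower.

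The steepest of these gaps to basal-keratin cells was in Oxtr, the oxytocin receptor that triggers myoepithelial contraction, at 14.9 against 111 CPM. Mylk, the kinase that activates smooth muscle myosin, had 82.4 CPM in mixed and 321 CPM in basal-keratin cells, and its heavy chain partner Myh11 had 32.2 and 111 CPM. Acta2, smooth muscle actin, differed less, at 1618 and 2226 CPM (log2 ratio −0.46, −0.62 to −0.30), while the interval of Tpm2, a tropomyosin, included no change (638 and 609 CPM, log2 ratio 0.07, −0.23 to 0.39). In Fgfr2 KO the list summed to 6611 CPM in mixed, 11746 in basal-keratin and 671 in luminal-keratin cells. There the log2 ratio to basal-keratin cells was −0.83 (−0.93 to −0.73), but it was −0.52 without the cell with most contractile UMIs in each class and −0.09 after thinning to 5000 UMIs.

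Most other basal genes were above luminal-keratin cells. Krt17, a basal and wound keratin outside the rule, had 1098 CPM in mixed, 2540 in basal-keratin and 167 in luminal-keratin cells of Ctrl. In Fgfr2 KO it had 1260, 924 and 60.5 CPM, so that mixed cells lay below basal-keratin cells in Ctrl and above them in Fgfr2 KO, where 1 cell gave 40.3% of the UMIs. Krt15, the other basal keratin outside the rule, differed by library. After thinning it was found in 13 of 94 mixed, 1 of 13 basal-keratin and 1 of 54 luminal-keratin cells of Ctrl. In Fgfr2 KO it was found in 0 of 13, 0 of 7 and 4 of 18, so luminal-keratin cells were highest there. Of 16 measured regulators, adhesion and matrix genes of basal cells, 11 were at least 2-fold higher than in luminal-keratin cells of Ctrl and 0 lower, while 2 were higher and 3 lower than in basal-keratin cells, against 14.1% and 7.82% of all genes. Trp63, the p63 factor that maintains basal identity, had 18.1 CPM in mixed, 39.3 in basal-keratin (6 UMIs) and 2.88 in luminal-keratin cells, and the interval of its log2 ratio to basal-keratin cells included no change (−2.35 to 0.40). Id4, a member of the inhibitor of DNA binding family, had 78.5, 177 and 2.88 CPM, and Sparc, a matrix glycoprotein, had 679, 1120 and 116 CPM.

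Luminal genes differed by group. The junction and keratin groups lay between the other classes in Ctrl, while the summed secretory genes (1919 CPM against 2213 in basal-keratin and 1986 in luminal-keratin cells) did not. The summed hormone-sensing genes were at 948, 1296 and 3659 CPM, of which Ly6a gave 75.2% of the UMIs of mixed and basal-keratin cells, and gene by gene 3 of 9 were at least 2-fold higher than in basal-keratin cells and 0 lower, with a median log2 ratio of 0.26. The luminal junction and identity list summed to 3738 CPM in mixed, 7379 in luminal-keratin and 2141 in basal-keratin cells of Ctrl. Its log2 ratio was −0.98 (−1.02 to −0.94) to luminal-keratin and 0.80 (0.64 to 0.97) to basal-keratin cells. Of 15 measured genes 8 were at least 2-fold lower and 0 higher than in luminal-keratin cells, and of 14 measured genes 6 were higher and 0 lower than in basal-keratin cells. Over all genes 6.45% were that much lower than in luminal-keratin cells and 14.1% higher than in basal-keratin cells. Cldn3 and Cldn4, claudins of tight junctions, had 203 and 379 CPM in mixed, 384 and 950 in luminal-keratin, and 13.1 and 105 in basal-keratin cells. Epcam, an epithelial adhesion molecule, had 736, 1053 and 347 CPM in the same order. In Fgfr2 KO the list gave 2415, 5783 and 2127 CPM, with a log2 ratio to luminal-keratin cells of −1.26 (−1.38 to −1.14) and to basal-keratin cells of 0.18 (−0.04 to 0.41).

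Krt19, a keratin of mature luminal cells, had 305 CPM in mixed and 3254 CPM in luminal-keratin cells of Ctrl, and 86.7 and 2078 CPM in Fgfr2 KO. Basal-keratin cells had 144 and 39.7 CPM. Krt7, a simple epithelial keratin, had 288, 722 and 39.3 CPM in mixed, luminal-keratin and basal-keratin cells of Ctrl and 49.5, 359 and 9.94 CPM in Fgfr2 KO. Both luminal keratins outside the rule were thus below luminal-keratin cells in each library.

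Hormone-sensing genes were low in mixed cells. Of 11 measured genes, 10 were at least 2-fold lower in mixed than in luminal-keratin cells of Ctrl and 0 higher, with a median log2 ratio of −2.92 against 0.02 over all genes. Over all genes 6.45% were that much lower. Prlr, the prolactin receptor, had 23.5 CPM in mixed and 410 CPM in luminal-keratin cells. Areg, the EGF family ligand induced by estrogen, had 53.0 and 1134 CPM, and Cited1, a coactivator of the estrogen receptor, had 16.1 and 375 CPM. The same genes were low in mixed cells of Fgfr2 KO, where Prlr had 12.4 against 296 CPM, Areg 18.6 against 669 CPM and Cited1 15.5 against 596 CPM. In immune cells of Ctrl these genes had 15.9, 55.7 and 9.95 CPM, so the levels of Prlr and Areg in mixed cells were near the background of the library.

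Genes of secretory luminal progenitors differed among themselves. Their summed level was 1919 CPM in mixed and 1986 CPM in luminal-keratin cells of Ctrl (log2 ratio −0.05, −0.12 to 0.02), with 1 of 12 measured genes at least 2-fold higher and 5 lower, a median log2 ratio of −0.71. Over all genes 8.41% were that much higher and 6.45% lower. Csn3, the milk protein kappa casein, had 399 CPM in mixed, 386 in luminal-keratin and 39.3 in basal-keratin cells, where 1 cell gave 68.6% of the luminal-keratin and 18.4% of the mixed UMIs. Lcn2, a secreted iron-trapping protein, had 609, 469 and 1486 CPM, so that it was highest in basal-keratin cells. Plet1, a cell surface protein, had 131, 379 and 19.6 CPM. In Fgfr2 KO, Csn3 had 21.7 CPM in mixed and 321 in luminal-keratin cells, with 0 UMIs in basal-keratin cells.

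**Figure D3:**
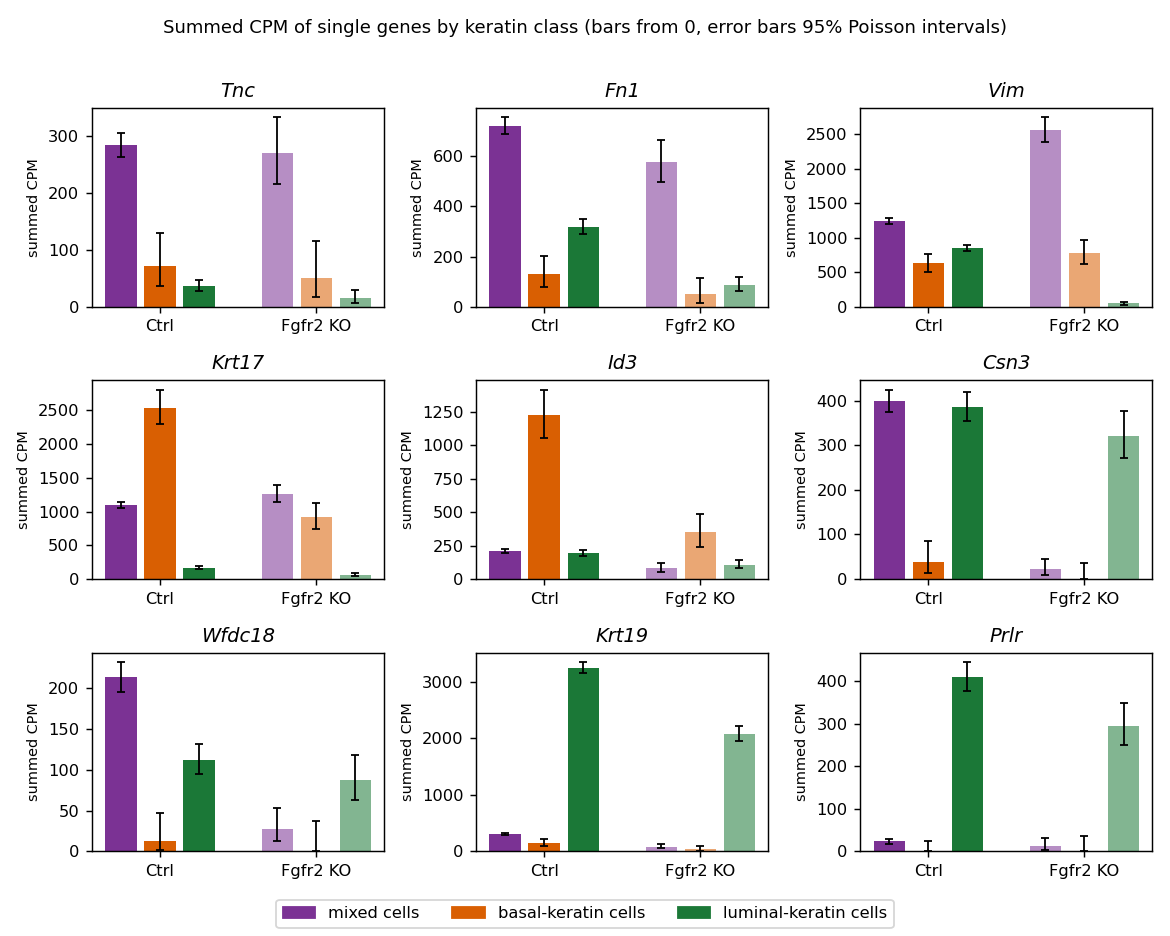
Bars from 0 give the summed CPM of 9 genes in mixed, basal-keratin and luminal-keratin cells of the Ctrl library (left group of each panel) and the Fgfr2 KO library (right group, paler), and error bars are 95% Poisson intervals. Tnc and Fn1 are highest in mixed cells of both libraries, Krt19 and Prlr are highest in luminal-keratin cells of both, and Csn3 and Wfdc18 are lower in mixed cells of Fgfr2 KO (21.7 and 27.9 CPM) than of Ctrl (399 and 213 CPM).

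Summed genes of the cell cycle were higher in mixed cells than in either other class of Ctrl, by little against luminal-keratin cells. The G1/S list, genes of DNA replication such as the Mcm helicase subunits and Pcna, summed to 964 CPM in mixed, 380 in basal-keratin and 611 in luminal-keratin cells. The log2 ratio was 1.34 (0.97 to 1.74) to basal-keratin and 0.66 (0.54 to 0.77) to luminal-keratin cells, and 10 of 15 genes were at least 2-fold higher and 0 lower than in basal-keratin cells. Against luminal-keratin cells 1 of 15 was higher and 0 lower, close to the share over all genes given above. The G2/M list, genes of mitosis such as Top2a, Ccnb2 and Cdc20, summed to 884, 354 and 678 CPM, with log2 ratios of 1.32 (0.93 to 1.74) and 0.38 (0.27 to 0.49), and 10 and 2 of 15 genes were at least 2-fold higher. Single mixed cells ranged from 0 to 50.3 UMIs of the G2/M list per 10000 with a median of 1.34, against medians of 0.55 in basal-keratin and 0.87 in luminal-keratin cells, so a minority of cells carried most of these UMIs. In Fgfr2 KO the G1/S list gave 954, 288 and 811 CPM and the G2/M list 564, 39.7 and 746 CPM, so that mixed cells lay above basal-keratin cells on both lists but below luminal-keratin cells on the second. Medians of the G2/M list over these cells were 0.70, 0.51 and 0.66 per 10000, and the highest luminal-keratin cell reached 40.8.

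By a rule on the counting interval, 156 of 9313 eligible genes were above both other classes in mixed cells of Ctrl, and the 8 farthest from no change were Tnc, Fn1, Tuba1a, AA467197, Apod, Tppp3, Wfdc18 and Cdc20. Tnc, the matrix protein tenascin C that is deposited around growing and healing epithelium, had 283 CPM in mixed, 72.0 in basal-keratin and 36.0 in luminal-keratin cells. Fn1, fibronectin, had 722, 131 and 318 CPM, and Tuba1a, an alpha tubulin, had 525, 137 and 249 CPM. By summed CPM these genes were also highest in mixed cells of Fgfr2 KO, at 269, 49.7 and 14.6 CPM for Tnc, 576, 49.7 and 87.6 CPM for Fn1 and 712, 219 and 93.8 CPM for Tuba1a. There 1 cell gave between 48.3% and 50.6% of the mixed cells' UMIs of each gene, against at most 21.5% in Ctrl. After thinning, Tnc was found in 3 of 13 mixed, 3 of 7 basal-keratin and 1 of 18 luminal-keratin cells of Fgfr2 KO. Fn1 was found in 3, 1 and 5 of these cells and Tuba1a in 8, 5 and 4, so mixed cells did not have the highest share of cells with a UMI. Immune cells of Ctrl had 83.5, 637 and 116 CPM, so Fn1 was not low outside the epithelium. With the share limits narrowed to 0.2 and 0.8, Tuba1a was lower in mixed than in luminal-keratin cells of Ctrl.

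Of the other genes of that group, Wfdc18, Apod, Cdc20 and Tppp3 were highest in mixed cells of Ctrl but not of Fgfr2 KO. Wfdc18, a secreted protein of the whey acidic protein family, had 213, 13.1 and 112 CPM in mixed, basal-keratin and luminal-keratin cells of Ctrl but 27.9, 0 and 87.6 CPM in Fgfr2 KO. Apod, a secreted lipid carrier, had 67.5, 6.55 and 18.0 CPM in Ctrl and 6.19, 19.9 and 213 CPM in Fgfr2 KO. Cdc20, an activator of the anaphase-promoting complex, had 77.7, 6.55 and 36.0 CPM in Ctrl and 18.6, 0 and 58.4 CPM in Fgfr2 KO. AA467197 had 100, 6.55 and 40.4 CPM and Tppp3 54.9, 0 and 20.2 CPM in Ctrl, where the basal-keratin values rest on 1 and 0 UMIs. In Fgfr2 KO, AA467197 had 18.6, 0 and 4.17 CPM, again highest in mixed cells but on 6 UMIs, and Tppp3 had 21.7, 49.7 and 2.08 CPM. With the narrower share limits AA467197 and Wfdc18 were lower in mixed than in luminal-keratin cells, and Cdc20 lower than in basal-keratin cells, and AA467197 was also lower than in luminal-keratin cells after thinning.

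Below both other classes were 39 of 2853 eligible genes, led by Errfi1, Fos, Malat1, C1s1, Btg2, Ly6a, Nrip1 and Slc39a1. Errfi1, a feedback inhibitor of EGF receptor signaling, had 127 CPM in mixed, 478 in basal-keratin and 247 in luminal-keratin cells. Fos, an immediate early transcription factor, had 912, 2036 and 1513 CPM in Ctrl but 2131, 1540 and 1889 CPM in Fgfr2 KO, where mixed cells were highest. Malat1, a nuclear long non-coding RNA, had 11773, 18744 and 19599 CPM in Ctrl and 8361, 11457 and 19296 CPM in Fgfr2 KO, lowest in mixed cells of both. Btg2, an antiproliferative early response gene, had 187, 386 and 304 CPM in Ctrl, and Ly6a, which encodes Sca-1, had 703, 1133 and 1075 CPM. In Fgfr2 KO they had 344, 298 and 379 CPM and 591, 278 and 596 CPM, neither lowest in mixed cells. The gap to basal-keratin cells, of which there were 13, turned over for Fos and Btg2 with share limits of 0.05 and 0.95, for Ly6a and Slc39a1 with limits of 0.2 and 0.8, and for Malat1 after thinning. Of the basal-keratin Fos UMIs, 48.9% came from 1 cell.

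A separate list held ligands, receptors and BMP targets, since the study asked how basal and luminal cells signal to each other through factors such as BMP7 and activin. Id3, a target of BMP signaling that restrains differentiation, had 208 CPM in mixed, 1224 in basal-keratin and 193 in luminal-keratin cells of Ctrl, although 1 cell gave 56.1% of the basal-keratin UMIs. Bmp7, a BMP ligand, had 40.8 CPM in mixed cells of Ctrl, above the 1.44 of luminal-keratin cells. Basal-keratin cells had 32.7 CPM, which rests on few UMIs, so a difference from mixed cells in either direction cannot be judged. A Bmp7 UMI was found in 15 of 94 mixed, 3 of 13 basal-keratin and 0 of 54 luminal-keratin cells after thinning. Inhba, the activin A subunit, had 90.3 CPM in mixed and 107 CPM in luminal-keratin cells but 0 UMIs in basal-keratin cells, at least 4.60-fold higher in mixed than in basal-keratin cells with a floor of 3 UMIs over the class. Immune cells of Ctrl had 0.995 CPM of Bmp7 and 29.8 CPM of Inhba, and the part of free RNA in the Inhba level of mixed cells was not tested. In Fgfr2 KO, Bmp7 had 18.6 CPM (6 UMIs) in mixed, 49.7 (5 UMIs) in basal-keratin and 14.6 (7 UMIs) in luminal-keratin cells. Inhba had 40.3 CPM (13 UMIs) in mixed and 45.9 CPM in luminal-keratin cells and 0 UMIs in basal-keratin cells.

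**Figure D4:**
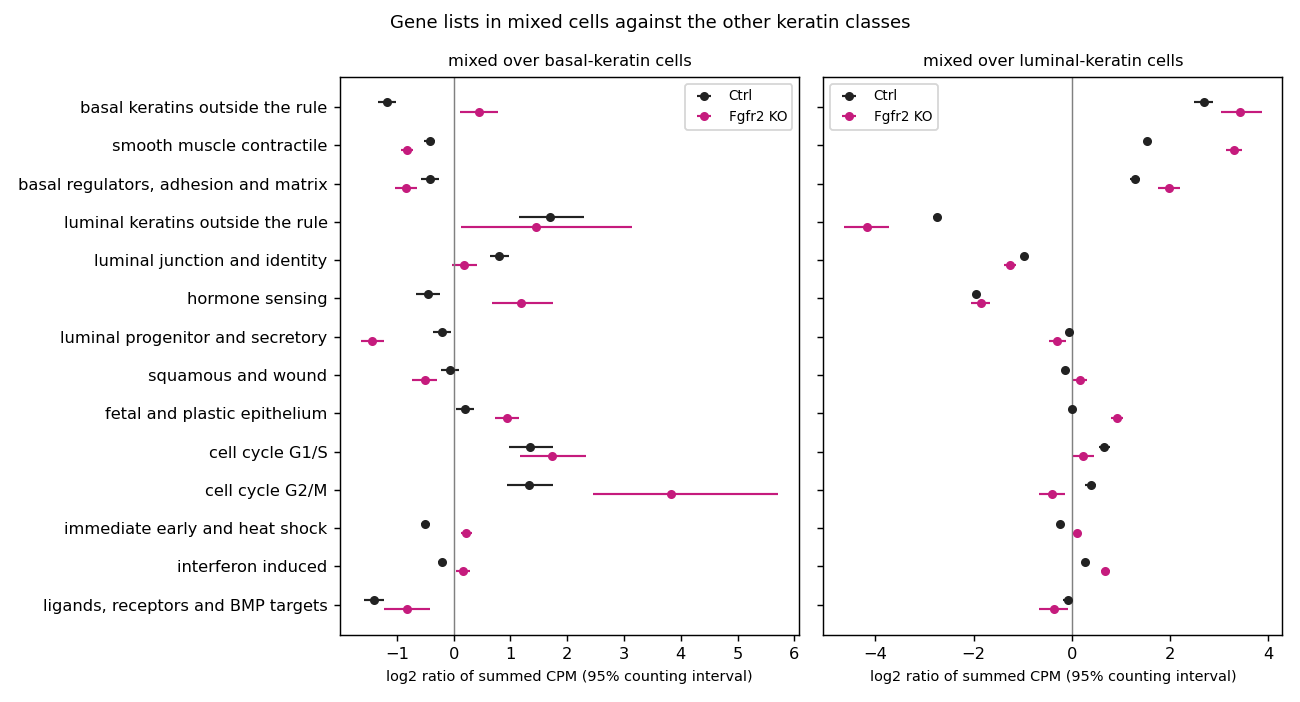
Points give the log2 ratio of summed CPM of 14 gene lists in mixed over basal-keratin cells (left) and over luminal-keratin cells (right), in the Ctrl (black) and Fgfr2 KO (pink) libraries, with 95% counting intervals as lines. Contractile genes lie left of 0 in the left panel and right of 0 in the right panel in both libraries, and hormone-sensing genes lie near −2 in the right panel of both.

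Mixed cells were not uniform. Contractile genes ranged from 2.58 to 236 UMIs per 10000 in Ctrl (median 25.1), and at a limit of 20 per 10000, set after the data were seen, 52 cells were contractile-rich and 43 contractile-poor (45.3%, 35.0 to 55.8%). The limit cut through a range, with 36 cells between 10 and 40 per 10000. In Fgfr2 KO 9 cells were rich and 4 poor (30.8%, 9.09 to 61.4%), with 2 between 10 and 40. The basal keratin share followed this only in part. In Ctrl 11 of 32 cells with a share up to 0.35, 8 of 17 up to 0.65 and 33 of 46 above it were contractile-rich. Median depth was 19430 UMIs in contractile-rich and 21975 in contractile-poor cells.

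Contractile-rich and contractile-poor cells of Ctrl differed in many genes outside the contractile list, on which they had been divided. Between them, 8.63% of 8354 genes were at least 2-fold higher and 4.43% lower in contractile-rich cells. Vim, the intermediate filament vimentin, had 1971 CPM in contractile-rich and 349 CPM in contractile-poor cells. Tnc had 466 and 54.6 CPM, Fn1 1024 and 346 CPM, and Krt17 1565 and 517 CPM. Of 16 basal regulators, adhesion and matrix genes 8 were at least 2-fold higher in contractile-rich cells and 0 lower. Of the Tnc UMIs of mixed cells 659 of 721, and of the Fn1 UMIs 1448 of 1840, came from contractile-rich cells.

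Summed secretory and replication transcripts were higher in contractile-poor cells, but not absent from contractile-rich cells. Csn3 had 717 CPM in contractile-poor and 144 CPM in contractile-rich cells, Wfdc18 had 442 and 28.3 CPM, and Ly6d, a lipid-anchored surface protein, had 321 and 35.4 CPM. The G1/S list summed to 1337 CPM in contractile-poor and 664 CPM in contractile-rich cells, with 6 of 15 genes at least 2-fold higher in contractile-poor cells and 0 in contractile-rich cells, whereas the G2/M list gave 873 and 894 CPM. Against luminal-keratin cells of the same library, 10 of 15 G1/S genes were at least 2-fold higher in contractile-poor cells and 0 lower, where 6.25% of 8321 genes were higher and 8.35% lower. Medians of the G1/S list over cells lay closer, at 4.42 per 10000 in contractile-poor, 3.81 in contractile-rich and 3.03 in luminal-keratin cells. The highest cells held 36.7, 23.7 and 25.8 per 10000, so a minority of cells carried much of the summed difference. Hormone-sensing genes stayed low in contractile-poor cells, with 9 of 11 at least 2-fold lower than in luminal-keratin cells. On these lists, contractile-poor mixed cells and luminal-keratin cells differed by more than counting error.

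The 13 mixed cells of Fgfr2 KO can be followed one by one. From the lowest to the highest basal share, the first 5 (0.12, 0.23, 0.24, 0.54 and 0.60) had 53.3, 64.0, 10.4, 7.45 and 3.04 contractile UMIs per 10000. The other 8 had a share between 0.79 and 0.89 and a median of 86.3 contractile UMIs per 10000, from 10.55 to 219. Luminal junction UMIs were 38.9 to 49.5 per 10000 in cells 3 to 5 of this order and 11.9 to 37.2 in the rest. The 4 contractile-poor cells were cells 3 to 5, with the highest junction genes, and 1 cell of high share (0.89). The first cell, with 84314 UMIs, gave 26.1% of the UMIs of the class.

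To ask how these cells differed with loss of Fgfr2 in the donor basal cells, the mixed cells of the libraries were compared. Fgfr2 itself, the deleted gene, stood at 20.8 CPM in mixed cells of Ctrl (53 UMIs, interval 15.6 to 27.2 CPM). In those of Fgfr2 KO it stood at 15.5 CPM (5 UMIs, interval 5.03 to 36.1 CPM). With a log2 ratio of −0.43 (−2.11 to 0.89), a difference was not detectable at this depth, and reads outside the deleted part of the gene would not show the deletion. Fgfr1, the other FGF receptor of this epithelium, had 95.8 and 105 CPM. Of 8710 genes with at least 20 UMIs, 4.44% were at least 2-fold higher and 11.7% lower in Fgfr2 KO.

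Immediate early and heat shock genes were higher in mixed cells of Fgfr2 KO. The list of 14 summed to 11851 CPM against 7212 CPM in Ctrl (log2 ratio 0.72, 0.67 to 0.77), and 3 genes were at least 2-fold higher and 0 lower. Hspa1a, an inducible chaperone with a near-identical copy in Hspa1b, had 644 CPM in Fgfr2 KO and 137 CPM in Ctrl, and Fos had 2131 and 912 CPM. The other classes are given beside them. The list was at 10993 against 8471 CPM in luminal-keratin, 9658 against 5328 CPM in immune and 10156 against 10194 CPM in basal-keratin cells of Fgfr2 KO and Ctrl. The basal-keratin sum of Ctrl rests in part on 1 cell with 396 UMIs of the list per 10000, and the medians over basal-keratin cells were 100.5 per 10000 in Fgfr2 KO and 81.7 in Ctrl. Hspa1a was at 452 against 67.8, 318 against 38.8 and 159 against 262 CPM in them. These genes respond to tissue dissociation as well as to signals in vivo, and handling of the libraries cannot be told apart from genotype.

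Beside them, the genes farthest above no change in Fgfr2 KO mixed cells were Igfbp5, Arc, Klf2, AY036118, Ckb and Lrrc58. Igfbp5, a secreted binding protein of insulin-like growth factors, had 938 CPM against 251 CPM (log2 ratio 1.90), and in basal-keratin cells 2832 against 1218 CPM. Klf2, a transcription factor, had 353 and 112 CPM and Arc, an activity-induced gene, 108 and 21.6 CPM, with 49.1% and 45.7% of the Fgfr2 KO UMIs from 1 cell. Ckb, brain-type creatine kinase, had 96.0 and 29.4 CPM and Lrrc58 542 and 224 CPM. With share limits of 0.2 and 0.8, Arc and Ckb were lower in Fgfr2 KO, and Ckb also after thinning. AY036118 had 539 and 183 CPM, and it was also higher in Fgfr2 KO in luminal-keratin (673 against 187 CPM) and immune cells (537 against 180 CPM). Contractile genes summed to 6611 against 4362 CPM (log2 ratio 0.60, 0.53 to 0.67), with 3 of 12 at least 2-fold higher. In basal-keratin cells they stood at 11746 against 5846 CPM and in luminal-keratin cells at 671 against 1514 CPM. Within contractile-rich cells the ratio was 0.35 (0.28 to 0.42) but within contractile-poor cells −0.16 (−0.51 to 0.17), although these groups were divided on the same list.

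**Figure D5:**
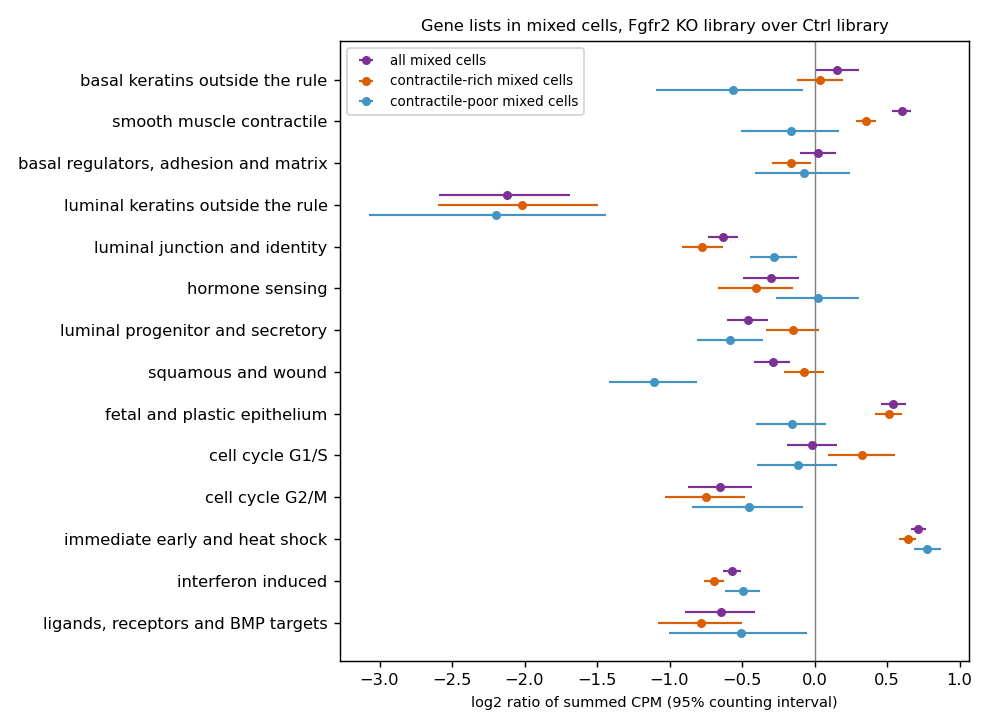
Points give the log2 ratio of summed CPM of 14 gene lists in Fgfr2 KO over Ctrl for all mixed cells (13 over 95), contractile-rich cells (9 over 52) and contractile-poor cells (4 over 43), with 95% counting intervals as lines. Immediate early and heat shock genes lie right of 0 and interferon induced genes, G2/M genes and luminal keratins outside the rule left of 0 in all comparisons drawn.

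Interferon induced genes were lower in mixed cells of Fgfr2 KO. The list summed to 7633 CPM against 11322 CPM in Ctrl (log2 ratio −0.57, −0.63 to −0.51), and 5 of 16 genes were at least 2-fold lower and 0 higher. Cxcl10, a chemokine that attracts lymphocytes, had 214 and 818 CPM in Fgfr2 KO and Ctrl, Ubd, a ubiquitin-like modifier, had 52.6 and 248 CPM, and Ifit1, an antiviral protein, had 9.29 and 65.5 CPM. In Fgfr2 KO 1 cell gave 82.4% of the Ubd UMIs, and the Ifit1 value rests on 3 UMIs of 1 cell. Gbp2b, an interferon-induced GTPase, was counted 358 times in Ctrl and 0 times in mixed cells of Fgfr2 KO, which made it at least 15.1-fold lower there with a floor of 3 UMIs over the class. Gbp2b is a close relative of Gbp2 (338 CPM in Fgfr2 KO and 654 in Ctrl), and reads shared between them could be split by the counting. The list was also lower in luminal-keratin (4747 against 9398 CPM) and basal-keratin cells of Fgfr2 KO (6817 against 13120 CPM), thus in every keratin class, but not in immune cells (14015 against 11223 CPM). The list of 8 immune markers stood at 220 CPM in mixed cells of Fgfr2 KO and 552 CPM in Ctrl. Cd3e was at 0 in both and Ptprc at 0 and 1.57 CPM. In these values free RNA and the cells' own transcripts cannot be told apart. The part of host immune cells or of free RNA in the difference was not tested.

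Luminal genes and some secretory genes were lower too, in cells whose median basal keratin share was 0.81 in Fgfr2 KO against 0.58 in Ctrl. Krt7 and Krt19 summed to 136 CPM in mixed cells of Fgfr2 KO and 593 CPM in Ctrl (log2 ratio −2.12, −2.59 to −1.69), and within contractile-rich and contractile-poor cells the ratios were −2.02 and −2.20. The other classes had the same direction, with 2437 against 3976 CPM in luminal-keratin and 49.7 against 183 CPM in basal-keratin cells. The luminal junction list gave 2415 and 3738 CPM (log2 ratio −0.63, −0.74 to −0.52), with 4 of 14 genes at least 2-fold lower and 0 higher, and in luminal-keratin cells 5783 and 7379 CPM. The secretory list gave 1394 and 1919 CPM (log2 ratio −0.46, −0.60 to −0.32), with 4 of 9 genes at least 2-fold lower and 0 higher, but its median over cells was 18.0 per 10000 in Fgfr2 KO and 11.4 in Ctrl, and within contractile-rich cells the interval of the ratio included no change (−0.15, −0.33 to 0.03). Csn3 had 21.7 against 399 CPM and Wfdc18 27.9 against 213 CPM, whereas Lcn2 had 873 against 609 CPM. Calcb, which encodes the beta form of the neuropeptide CGRP, had 0 UMIs against 131, at least 5.53-fold lower with the same floor. AW112010, an interferon-responsive transcript, had 15.5 against 408 CPM, Sprr1a, a cornified envelope protein, 6.19 against 202 CPM, and Nupr1, a stress-induced chromatin protein, 124 against 587 CPM, with 72.5% of the Fgfr2 KO UMIs from 1 cell. Of the Sprr1a UMIs of Ctrl 40.3% came from 1 cell. For Csn3, Wfdc18, AW112010 and Sprr1a the Ctrl level was higher in contractile-poor than in contractile-rich cells, and Fgfr2 KO held 4 contractile-poor cells. Within contractile-poor cells, Csn3 was at 41.1 CPM in Fgfr2 KO and 717 CPM in Ctrl.

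Cell cycle genes differed by phase. The G1/S list had 954 CPM in mixed cells of Fgfr2 KO and 964 CPM in Ctrl (log2 ratio −0.01, −0.19 to 0.16), with 1 of 15 genes at least 2-fold lower. The G2/M list had 564 and 884 CPM (log2 ratio −0.65, −0.88 to −0.43), with 5 of 15 genes at least 2-fold lower and 0 higher, among them Cdc20 (18.6 and 77.7 CPM), Ccnb1, a mitotic cyclin (18.6 and 61.6 CPM), and Nusap1, a spindle protein (9.29 and 42.8 CPM). It rested on 182 UMIs in Fgfr2 KO, and without the cell with most of these UMIs in each library the log2 ratio was −1.35. In basal-keratin cells the list stood at 39.7 CPM (4 UMIs) in Fgfr2 KO and 354 CPM in Ctrl, where 1 cell had 28.5 UMIs of the list per 10000, and the medians over these cells were close (0.51 and 0.55 per 10000). In luminal-keratin cells it stood at 746 and 678 CPM, and the difference between the classes was not tested.

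Markers of the other stromal types were low in mixed cells. The 6 fibroblast markers summed to 166 CPM in Ctrl, where 1 cell reached 30.8 per 10000, and to 27.9 CPM in Fgfr2 KO, against 109 and 166 CPM in immune cells. Endothelial, pericyte and adipocyte lists stood at 18.1, 12.6 and 5.89 CPM in Ctrl and 12.4, 9.29 and 3.10 CPM in Fgfr2 KO, and Adipoq and Plin1, which define adipocytes, had 0 UMIs in both.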

How the data were processed

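The deposited table holds UMI counts per gene and cell for 2 libraries, 27998 genes and 2 reporters. The authors dissociated the transplants, purified cells by FACS and used the 10X droplet kit. The submitters' processing notes name Cell Ranger 2.1.1 and mm10, and columns were assigned to libraries by their prefixes WT and KO. The values are deposited raw counts, not normalized. The members and gene lists were chosen with earlier results of these data known.

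From the counts, UMIs were summed over the cells of a class and divided by the class total (CPM), with exact Poisson intervals. Ratios had exact conditional binomial intervals and shares had Clopper-Pearson intervals (95%). Cells are not replicates, so no p-values were computed. A gene counted as higher or lower at 2-fold among genes with at least 20 UMIs over both groups, and a group at 0 UMIs was set to a floor of 3 UMIs. Thinning to 5000 UMIs used seed 0, and Scrublet (scanpy 1.11.5) ran per library with 20 components. Python 3.11.15, numpy 2.4.6, scipy 1.17.1 and pandas 2.3.3 were used, and the ratio step was tested on simulated data.

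Beyond the lists, genes were named by 1 rule, which left out rule keratins, reporters, mitochondrial, ribosomal protein and predicted genes. It took the 8 genes per direction whose interval lay farthest from no change against both other classes in Ctrl, with at least 20 UMIs, at least 5 cells with a UMI in each higher class and no cell giving over 50% of its UMIs. For Fgfr2 KO over Ctrl it took 8 per direction with at least 3 such cells. Alternatives changed the keratin limits, the depth, the cells kept, the weighting of cells and the UMI minimum. The limit on contractile genes and its alternatives were chosen after seeing the data. The keratin names describe the rule and are not cell types the study assigned.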

Additional observations from a re-analysis of the deposited data

Results flagged for a closer look

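The groups here are 1 library each, so none of these differences was tested, and intervals cover counting error only. Each of the following lists had a log2 ratio with its interval on one side of 0 in Ctrl and on the other side in Fgfr2 KO, which is what marked it for a closer look. Against basal-keratin cells, the summed basal keratins outside the rule, Krt17 and Krt15, were lower in mixed cells of Ctrl (−1.18, −1.33 to −1.02) and higher in Fgfr2 KO (0.45, 0.12 to 0.79). Krt17 gave 97.3% of these UMIs in Ctrl and 100% in Fgfr2 KO. Medians over cells were lower in mixed cells of both libraries, at 7.05 against 20.3 per 10000 in Ctrl and 4.79 against 7.94 in Fgfr2 KO. Hormone-sensing genes stood at −0.45 (−0.66 to −0.23) in Ctrl and 1.19 (0.67 to 1.75) in Fgfr2 KO, where they rest on 34 UMIs in 7 basal-keratin cells. Most of these UMIs were of Ly6a (75.2% in Ctrl, 77.4% in Fgfr2 KO), and the median of 9 genes in Ctrl was 0.26. Immediate early and heat shock genes stood at −0.50 and 0.22, and interferon induced genes at −0.21 and 0.16.

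Against luminal-keratin cells, summed G2/M genes were higher in mixed cells of Ctrl (0.38, 0.27 to 0.49) and lower in Fgfr2 KO (−0.41, −0.67 to −0.14). Medians over cells of Fgfr2 KO were 0.70 per 10000 in mixed and 0.66 in luminal-keratin cells, where the highest cell reached 40.8. Immediate early and heat shock genes stood at −0.23 and 0.11.

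The reporter transcript GFP, which no comparison above used, was above the immune cells of the same library. It had 403 CPM (336 to 478) in mixed cells of Fgfr2 KO and 42.8 CPM (35.1 to 51.6) in Ctrl, against 16.6 and 4.97 CPM in immune cells. It was not particular to mixed cells, with 1372 and 304 CPM in luminal-keratin and 79.5 and 393 CPM in basal-keratin cells of Fgfr2 KO and Ctrl. At least 10 GFP UMIs were found in 2 of 13 mixed cells of Fgfr2 KO (19 and 103 UMIs) and 1 of 95 of Ctrl (53 UMIs), each with 0 Tdtomato UMIs, and no other mixed cell had over 5. All mixed cells held 130 GFP UMIs in Fgfr2 KO and 109 in Ctrl, so the difference in CPM rests largely on these few cells. Tdtomato stood at 37.2 CPM in Fgfr2 KO and 37.3 CPM in Ctrl, against 9.95 and 20.9 CPM in immune cells, with overlapping intervals in both libraries.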

How the results depend on the processing

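The share of mixed cells depended most on the keratin limits. In Ctrl it was 57.6%, and 41.2% with 10 UMIs of each pair, 33.9% with a share from 0.2 to 0.8, 69.1% from 0.05 to 0.95 and 44.6% after thinning. In Fgfr2 KO it was 34.2%, and 13.2% and 55.3% with the share limits. In the order 10 UMIs, 0.2 to 0.8, 0.05 to 0.95, thinned, without cells over 40000 UMIs, mean of cells, where a value moved, the log2 ratio of luminal junction genes to luminal-keratin cells of Ctrl (−0.98) became −0.935, −0.67, −1.16, −0.83, −0.86 and −0.92. In Fgfr2 KO (−1.26) it became −0.54 at 0.2 to 0.8, −0.999 thinned, −1.105 without cells over 40000 UMIs and −1.08 as a mean of cells. Contractile genes against basal-keratin cells of Ctrl (−0.42) became −0.54 at 0.2 to 0.8 and −0.53 at 0.05 to 0.95. In Fgfr2 KO (−0.83) they became −0.95 with 10 UMIs, −1.63 at 0.2 to 0.8, −0.085 thinned, −0.37 as a mean of cells and −0.52 without the top cell of each class, and no value could be had at 0.05 to 0.95, which left no basal-keratin cell. For Fgfr2 KO over Ctrl, G2/M genes (−0.65) became −0.41, −1.75, −0.37 and −2.26 under the first 4 settings, −0.97 as a mean of cells and −1.35 without top cells. Interferon induced genes (−0.57) became −0.68, −0.26, −0.68, −0.49, −0.50 and −0.45 in the order above, −0.69 without Scrublet calls and −0.675 without top cells.

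Raising the minimum from 20 to 50 UMIs, or lowering it to 1, moved these counts of genes past 2-fold: lower than basal-keratin cells 665, to 279 and 1347, higher than luminal-keratin cells 803, to 420 and 1378, lower than them 616, to 326 and 1066, higher in Fgfr2 KO 387, to 127 and 828, and lower 1016, to 484 at 50. The contractile-poor share of Ctrl, 45.3%, was 24.2% and 62.1% at limits of 10 and 40 per 10000, both chosen after seeing the data.

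Of 493 values of named genes under the alternatives, 13 changed sign. At 0.2 to 0.8 these were Tuba1a (−0.49), AA467197 (−0.76) and Wfdc18 (−0.25) over luminal-keratin cells, Cdc20 (−0.34), Ly6a (0.49) and Slc39a1 (0.045) over basal-keratin cells, and Arc (−1.215) and Ckb (−0.215) for Fgfr2 KO over Ctrl. At 0.05 to 0.95 they were Fos (1.12) and Btg2 (0.32) over basal-keratin cells. After thinning they were AA467197 (−0.99) over luminal-keratin cells, Malat1 (0.0070) over basal-keratin cells and Ckb (−1.37). The cause was not tested. Of 101 values of lists, shares and counts, 53 moved by less than their interval or 1.5 times and 0 changed sign. No paired analysis was possible because each group had 1 library.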
